A study of Mus musculus with 10 samples.

Results

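Chchd10 and 7 relatives of the CHCHD family (Chchd2, Chchd1, Chchd3, Chchd4, Chchd5, Chchd6 and Chchd7) were read from the gene tables of a mouse acute myeloid leukemia series, 8 of 50600 gene entries. Chchd10 was chosen because its level was lower in all 3 tumor models than in normal marrow cells, and its relatives were taken by name, so the Chchd10 values against normal cells are given as a description with no test. The series holds 10 RNA-seq libraries, all of strain C57BL/6: spleen tumors driven by Cbfb::MYH11 (2 libraries), by MLL::AF9 (3 libraries) or by MLL::ENL (3 libraries), and wild type (WT) marrow cells selected for cKit (2 libraries). The Cbfb::MYH11 mice carried the Mx+; Hygr+ genotype, in which the interferon-responsive Mx1 promoter drives Cre, and received Poly IC at postnatal day 45. They modelled the inversion of chromosome 16. The MLL::AF9 mice were heterozygous (MLL-AF9 +/-) and untreated. The MLL::ENL tumors arose from stem and progenitor cells of WT donors that were transduced with an MLL::ENL retrovirus and transplanted, with WT marrow, into irradiated WT hosts, and so could hold cells of the host and of the helper marrow. Tumor cells were enriched on magnetic beads, with the selection labelled Mac1/Gr1/cKIT in both MLL models, cKit+ in Cbfb::MYH11 27 and cKit_ in Cbfb::MYH11 30. The libraries are called by the numbers or letters in their labels. MLL::AF9 2 and 42 were labelled male, MLL::ENL L had no sex given, and all other mice were labelled female. Ages at collection are not given in the sources used here.

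Most CHCHD proteins sit between the inner and outer membranes of mitochondria or on the inner membrane, and the family is named for helices that are pinned together by disulfide bonds between regularly spaced cysteines. CHCHD4, also called MIA40, makes these bonds as the newly made proteins enter, which keeps them inside. CHCHD10 and CHCHD2 are close relatives that bind each other, and mutations of CHCHD10 cause motor neuron disease and muscle disease in humans, while a mutant Chchd10 in mouse heart and muscle switches on genes of the ATF4 stress response. CHCHD3 (MIC19) and CHCHD6 (MIC25) are subunits of MICOS, the complex that shapes the folds of the inner membrane, and CHCHD1 is a protein of the small mitochondrial ribosome subunit. CHCHD5 and CHCHD7 are less studied members of the same fold.

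The coding stretches that hold the paired cysteines show what the family shares and how close Chchd10 and Chchd2 are. They were read from the reference transcripts of GENCODE M21 (GRCm38), each within 1 coding exon, and are shown 5′ to 3′ on the coding strand with the 4 cysteine codons in capitals. The stretches span codons 98 to 128 of Chchd10 (chr10:75937349-75937441, plus strand), 116 to 146 of Chchd2 (chr5:129882442-129882534, minus strand), 183 to 214 of Chchd3 (chr6:32803908-32804003, minus strand) and 64 to 97 of Chchd4 (chr6:91465144-91465245, minus strand).
Chchd10: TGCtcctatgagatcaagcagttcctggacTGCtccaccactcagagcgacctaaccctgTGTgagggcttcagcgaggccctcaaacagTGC
Chchd2: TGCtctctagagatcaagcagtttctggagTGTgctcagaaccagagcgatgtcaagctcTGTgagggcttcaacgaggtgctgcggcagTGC
Chchd3: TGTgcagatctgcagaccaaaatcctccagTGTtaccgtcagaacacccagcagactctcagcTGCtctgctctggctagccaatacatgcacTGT
Chchd4: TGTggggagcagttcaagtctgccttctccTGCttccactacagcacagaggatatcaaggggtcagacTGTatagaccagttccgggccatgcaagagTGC

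In each of the 8 members the cysteines of a pair were 9 codons apart. The spacer between the pairs was 9 codons in Chchd10 and Chchd2, 10 codons in Chchd1, Chchd3, Chchd5, Chchd6 and Chchd7, and 12 codons in Chchd4. Within the stretch Chchd10 and Chchd2 shared 66 of 93 bases (71.0%), and the MICOS subunits Chchd3 and Chchd6 shared 55 of 96 (57.3%). Over the whole coding sequence Chchd10 was 62.1% identical to Chchd2, and their transcripts shared no identical run longer than 14 bases. Chchd2 also has a pseudogene in the annotation, Chchd2-ps, at 98.1% identity with an identical run of 164 bases, so the Chchd2 level may hold or lose reads of that copy.

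Gene levels were taken from expected counts, scaled between libraries by TMM and given as CPM, counts per 1000000 counts of the library. Levels of different genes were compared only in TPM, which gives transcripts as parts of 1000000 and takes their length into account. Library totals ran between 12134917 and 20510574 expected counts with a median of 17313392. All 8 members passed the filter on low counts, among 14875 genes tested. Differences were tested with edgeR over all 10 libraries, and a gene was called where its adjusted p was under 0.05. Tissue and the way the tumors were made go with condition, so these cannot be told apart from the translocation in any comparison with WT. The cell selection also differs between both MLL models and WT, so it cannot be told apart from the translocation there either. In MLL against Cbfb::MYH11 tumors the cell selection and the way the tumors were made also differ, so these too cannot be told apart from the translocation. The numbers 42 and 47 are interchanged between 2 sources of the MLL::AF9 libraries, so the mouse of each of these libraries is uncertain. Both have the same condition in either source. In bulk samples, fewer cells of a type and less RNA per cell cannot be told apart.

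Chchd10 was low in every tumor. It lies on chromosome 10 from 75935573 to 75937725 in the deposited tables. Its level was 7.93 and 7.03 CPM in Cbfb::MYH11 tumors 30 and 27, 7.29, 3.24 and 15.3 CPM in MLL::AF9 tumors 2, 47 and 42, and 5.76, 7.08 and 7.04 CPM in MLL::ENL tumors NO, RL and L, against 94.7 and 50.0 CPM in WT 1 and WT 2. The highest tumor, MLL::AF9 42, lay below the lower WT library, so that the groups did not overlap. Cbfb::MYH11 tumors averaged 7.48 ± 0.64 CPM (SD, n = 2), MLL::AF9 tumors 8.61 ± 6.14 CPM (SD, n = 3) and MLL::ENL tumors 6.63 ± 0.75 CPM (SD, n = 3), against 72.3 ± 31.6 CPM (SD, n = 2) for WT cells. The fitted log2 fold changes against WT were −3.27 in Cbfb::MYH11, −3.07 in MLL::AF9 and −3.44 in MLL::ENL, which correspond to levels 9.66, 8.39 and 10.9 times lower. The 3 comparisons share the same WT libraries. Of all genes tested 40 were called lower in all 3 models, a background of 0.269%, and Chchd10 was one of them by the choice of the family. These tumor levels rested on 62 to 310 counts a library, against 1199 and 994 counts in WT 1 and WT 2.

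**Figure D1:**
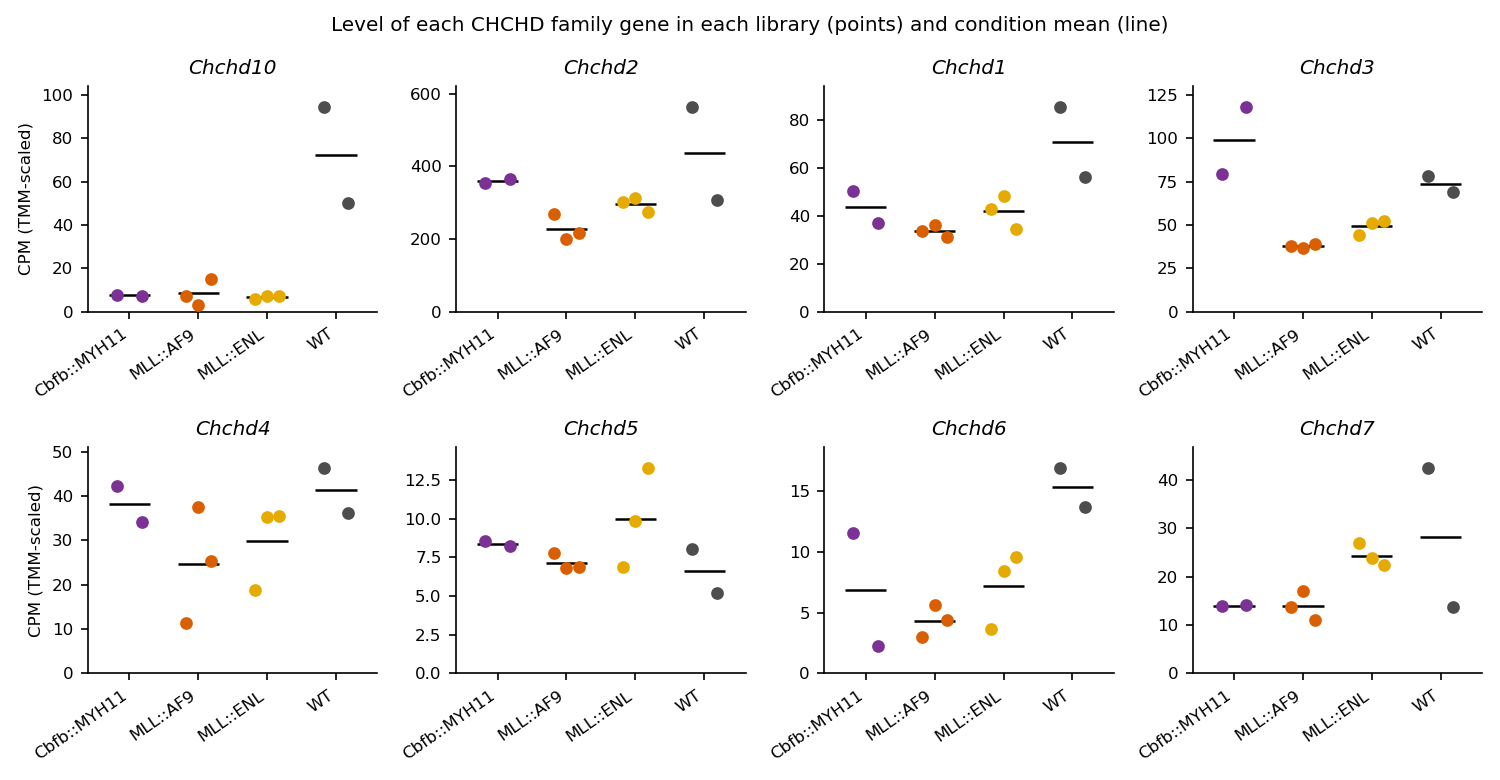
Each panel plots the level of 1 family gene (y axis, CPM from 0) in the Cbfb::MYH11, MLL::AF9, MLL::ENL and WT libraries (x axis), with 1 point per library and a line at the condition mean. The Chchd10 points of all 8 tumors lie at 15.3 CPM or lower and both WT points at 50.0 CPM or higher, while most other panels show overlapping points.

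The fold size of Chchd10 moved with single libraries but kept its direction. Leaving out each library in turn gave log2 fold changes between −3.62 (without WT 2) and −2.74 (without WT 1) in Cbfb::MYH11 tumors, between −3.78 (without MLL::AF9 42) and −2.55 (without WT 1) in MLL::AF9 tumors, and between −3.83 (without WT 2) and −2.95 (without WT 1) in MLL::ENL tumors. The WT libraries differed by TMM-scaled counts but not by the deposited TPM, in which Chchd10 was at 69.8 in WT 1 and 69.6 in WT 2. In TPM the tumors had 12.7 and 10.98 in Cbfb::MYH11, 7.81, 8.07 and 26.8 in MLL::AF9, and 6.67, 14.3 and 12.1 in MLL::ENL, so the groups again did not overlap. On the log2(TPM + 1) scale the median of all genes tested was itself higher in tumors than in WT cells, by 0.43 for Cbfb::MYH11, 0.46 for MLL::AF9 and 0.43 for MLL::ENL, against −0.01, 0.08 and 0.02 in the fitted counts. Relative to that median, the Chchd10 difference on that scale was −2.89 for Cbfb::MYH11, −2.90 for MLL::AF9 and −3.05 for MLL::ENL tumors.

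Between the tumor models the Chchd10 values are also a description, since a gene chosen for low levels in all 3 models is likely to have similar ones. Its log2 fold change was 0.02 in MLL tumors against Cbfb::MYH11 tumors and 0.38 in MLL::AF9 against MLL::ENL tumors. The spread came mostly from MLL::AF9, whose libraries ran between 3.24 and 15.3 CPM. Without MLL::AF9 42 these log2 fold changes were −0.34 for each comparison.

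Within the family, Chchd10 had a smaller part of the transcripts in tumors than in WT cells. Its share of the summed TPM of the 8 genes was 1.41% and 1.43% in Cbfb::MYH11 tumors, 2.03%, 1.18% and 4.69% in MLL::AF9 tumors and 1.29%, 1.56% and 1.65% in MLL::ENL tumors, against 10.5% and 9.65% in WT cells. For each 100 TPM of its paralog Chchd2 there were between 2.02 TPM of Chchd10 (MLL::AF9 47) and 7.60 TPM (MLL::AF9 42) in tumors, against 18.2 and 17.7 TPM in WT cells. By TPM Chchd10 had rank 5, 7 or 8 of the 8 genes in the tumors and rank 3 in both WT libraries. Chchd2 was first in all 10 libraries, with 54.5% to 68.2% of the summed TPM, and Chchd1 was second with 13.0% to 20.6%. These are descriptions of the gene the family was chosen by.

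**Figure D2:**
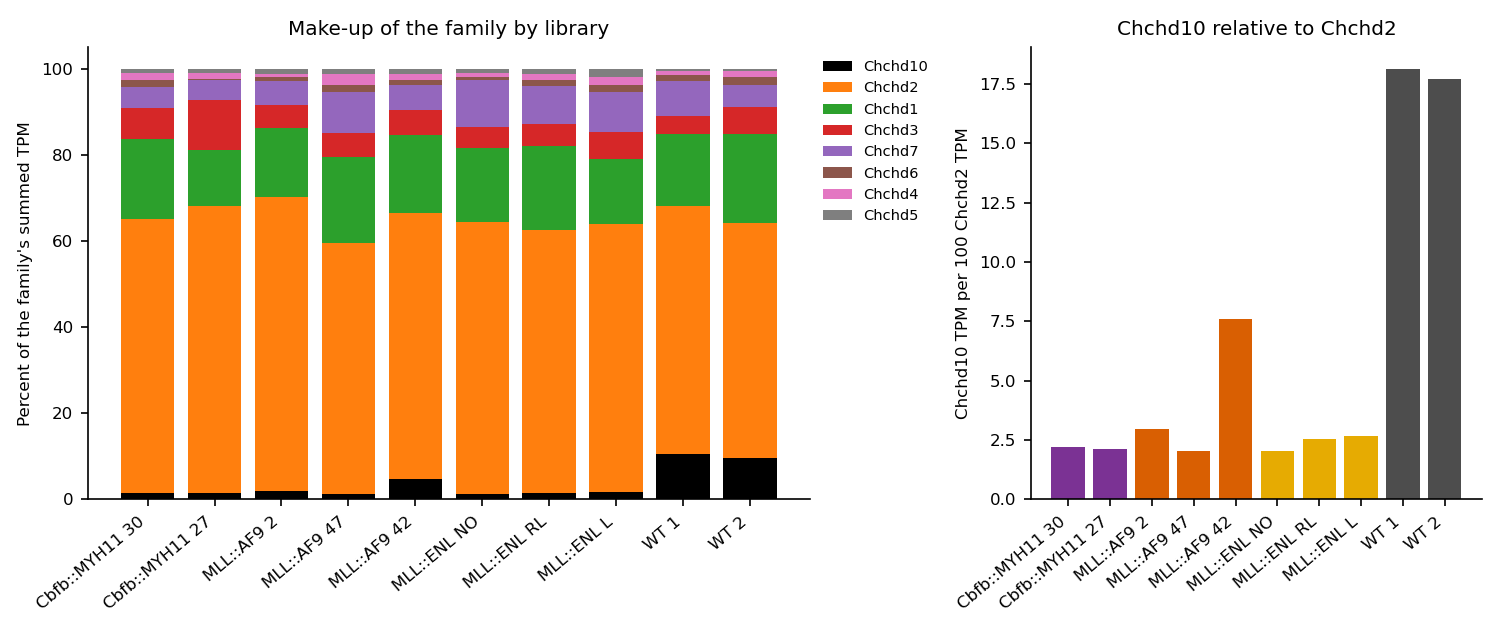
The left panel stacks the share of each family gene in the summed TPM of the 8 genes (y axis, percent) for each library, tumors first and WT last, with Chchd10 in black at the base. The right panel plots Chchd10 TPM per 100 Chchd2 TPM, which was between 2.02 and 7.60 in the tumors and 18.2 and 17.7 in the WT libraries.

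None of the 7 relatives was called against WT in any tumor model by edgeR. The counts of called relatives were 0 of 7 in Cbfb::MYH11 tumors (10.5% of all genes tested were called in either direction there), 0 of 7 in MLL::AF9 tumors (2.88% of all genes) and 0 of 7 in MLL::ENL tumors (2.1% of all genes). At an unadjusted p under 0.05 from edgeR there were 1 of 7 relatives for Cbfb::MYH11 (27.3% of all genes), 5 of 7 for MLL::AF9 (24.4% of all genes) and 2 of 7 for MLL::ENL (22.02% of all genes). DESeq2 called 0, 3 and 0, and limma-voom called 0, 0 and 0. The 3 called by DESeq2 in MLL::AF9 tumors were Chchd2, Chchd1 and Chchd3, all lower. The median log2 fold change of the 7 relatives was −0.28 for Cbfb::MYH11, −0.96 for MLL::AF9 and −0.55 for MLL::ENL, beside −0.01, 0.08 and 0.02 over all genes tested. These directions depend on the scaling, since in TPM with no adjustment for the shift of all genes Chchd2, Chchd3, Chchd4 and Chchd7 had positive differences in MLL::ENL tumors (0.17, 0.090, 0.18 and 0.60), as had Chchd2, Chchd1 and Chchd4 in Cbfb::MYH11 tumors (0.48, 0.011 and 0.54).

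**Figure D3:**
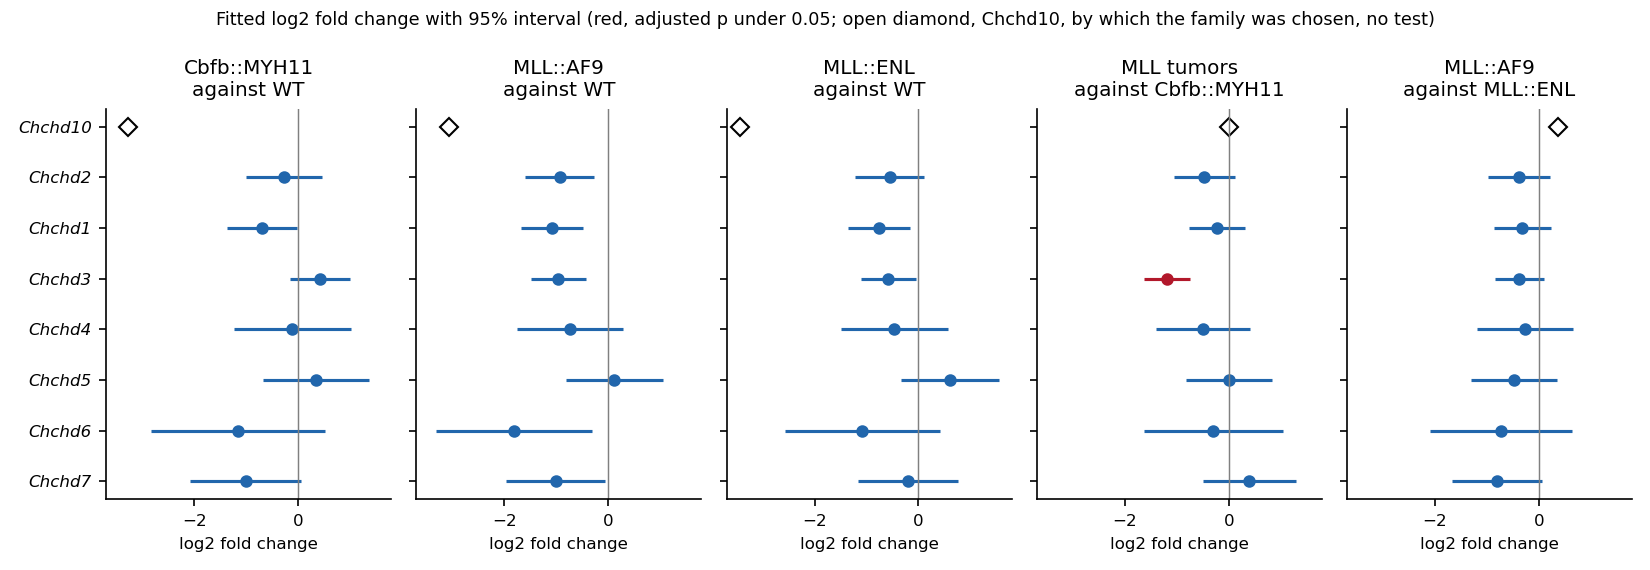
Each panel plots the fitted log2 fold change (x axis) of the 8 family genes (y axis) in 1 comparison, with bars for the 95% interval, red where the adjusted p is under 0.05 and open diamonds, with no test, for Chchd10, by which the family was chosen. Chchd10 lies near −3 in the 3 panels against WT and near 0 between tumors, and Chchd3 is the one red point, at −1.19.

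Chchd2, the paralog and partner of Chchd10, was at 354 and 367 CPM in Cbfb::MYH11 tumors, 268, 199.6 and 217 CPM in MLL::AF9 tumors, and 303, 314 and 274 CPM in MLL::ENL tumors, against 565 and 308 CPM in WT 1 and WT 2. The Cbfb::MYH11 and MLL::ENL values overlapped those of WT, while all MLL::AF9 values lay below. The log2 fold changes were −0.28 (95% interval −1.01 to 0.46) in Cbfb::MYH11, −0.94 (95% interval −1.60 to −0.28) in MLL::AF9 and −0.55 (95% interval −1.22 to 0.11) in MLL::ENL. None was called by edgeR (adjusted p = 0.64, 0.10 and 0.30). Relative to the median of all genes on the log2(TPM + 1) scale, the differences were 0.05, −0.68 and −0.27, and without WT 1 the fitted Cbfb::MYH11 value turned to 0.22.

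Chchd1, the ribosomal member, showed the same order as Chchd10 between tumors and WT, with a smaller gap. It had 50.2 and 37.1 CPM in Cbfb::MYH11 tumors, 33.5, 36.0 and 31.1 CPM in MLL::AF9 tumors, and 42.6, 48.3 and 34.4 CPM in MLL::ENL tumors, against 85.5 and 56.0 CPM in WT cells. In these scaled counts all 8 tumors lay below both WT libraries, which also held for Chchd10 and Chchd6 among the 8 members and for 6.12% of all genes tested. In TPM the groups overlapped for Chchd1, at 61.1 to 179 TPM in tumors against 111 and 148 TPM in WT cells. The log2 fold changes of −0.70 for Cbfb::MYH11, −1.08 for MLL::AF9 and −0.76 for MLL::ENL were not called (adjusted p = 0.17, 0.061 and 0.14 from edgeR). Without WT 1 the Cbfb::MYH11 value was −0.36 and the MLL::ENL value −0.46.

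Chchd6, the MICOS subunit MIC25, was a weakly expressed member. Its level was 11.5 and 2.21 CPM in Cbfb::MYH11 tumors, 2.97, 5.64 and 4.39 CPM in MLL::AF9 tumors, and 3.62, 8.44 and 9.59 CPM in MLL::ENL tumors, against 16.9 and 13.7 CPM in WT cells. Tumors and WT cells did not overlap in CPM, but did in TPM (2.42 to 14.5 TPM in tumors against 8.93 and 13.4 TPM in WT cells), and the lowest and the highest tumor were both Cbfb::MYH11. Its log2 fold change in MLL::AF9 was −1.82 (95% interval −3.32 to −0.32, adjusted p = 0.14 from edgeR), after Chchd10 the most negative of the family, with −1.15 in Cbfb::MYH11 and −1.08 in MLL::ENL. The Cbfb::MYH11 value was −2.79 without Cbfb::MYH11 30 and −0.40 without Cbfb::MYH11 27.

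Chchd4, the import oxidoreductase, and the little-studied members Chchd5 and Chchd7 gave wide or overlapping values against WT. Chchd4 was at 42.3 and 34.2 CPM in Cbfb::MYH11 tumors, 11.4, 37.6 and 25.2 CPM in MLL::AF9 tumors, and 18.7, 35.3 and 35.5 CPM in MLL::ENL tumors, against 46.3 and 36.2 CPM in WT cells. Its MLL::AF9 libraries thus differed from each other by more than those of any other condition did. Chchd5 was the one relative with a positive log2 fold change in all 3 models (0.35 in Cbfb::MYH11, 0.11 in MLL::AF9 and 0.60 in MLL::ENL), none of them called (adjusted p = 0.67, 0.90 and 0.43 from edgeR). Its levels were 8.55 and 8.25 CPM in Cbfb::MYH11, 7.78, 6.83 and 6.86 CPM in MLL::AF9, and 6.87, 9.88 and 13.3 CPM in MLL::ENL tumors, against 8.06 and 5.18 CPM in WT cells, and without WT 2 its MLL::AF9 value was −0.15. Chchd7 had 13.9 and 14.1 CPM in Cbfb::MYH11, 13.7, 17.1 and 11.01 CPM in MLL::AF9, and 27.02, 23.8 and 22.3 CPM in MLL::ENL tumors, against 42.5 and 13.7 CPM in WT cells. WT 1 was the highest library for Chchd7 while WT 2 lay among the tumors, and its log2 fold changes without WT 1 were 0.02 in Cbfb::MYH11 and 0.78 in MLL::ENL, against −1.01 and −0.20 with all libraries.

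Counted without a test and in CPM, the relatives lay below WT in every library as follows. In Cbfb::MYH11 tumors 2 of 7 did (31.9% of all genes) and 2 of 7 lay above in every library (28.8% of all genes). In MLL::AF9 tumors 4 of 7 lay below in every library, against 21.2% of all genes, and in MLL::ENL tumors 4 of 7 did, against 23.1% of all genes. Chchd1, Chchd3 and Chchd6 were among the 4 in both MLL models, with Chchd2 in MLL::AF9 and Chchd4 in MLL::ENL. The relatives in each count come from the same libraries and are not independent of each other.

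Chchd3 was the one member called between tumor types. MIC19, its product, ties the MICOS complex to the outer membrane. Its level was 38.2, 36.7 and 38.8 CPM in MLL::AF9 tumors and 44.1, 51.4 and 52.3 CPM in MLL::ENL tumors, against 79.3 and 118.4 CPM in Cbfb::MYH11 tumors 30 and 27. Every MLL tumor lay below both Cbfb::MYH11 tumors, which was also true of Chchd2 among the 8 members and of 20.4% of all genes. MLL tumors averaged 43.6 ± 6.88 CPM (SD, n = 6) and Cbfb::MYH11 tumors 98.9 ± 27.7 CPM (SD, n = 2). The fitted log2 fold change was −1.19 (standard error 0.20, 95% interval −1.64 to −0.75, adjusted p = 0.0024 from edgeR). Of the 8 members 1 was called in this comparison, in which 25.6% of all genes were called, 13.2% higher and 12.4% lower, so that the family's count was not above the background. The call was lost without Cbfb::MYH11 27, at a log2 fold change of −0.88, and held without each of the other 9 libraries. Leaving out either Cbfb::MYH11 library leaves 1 in that group, and fewer genes were then called over all genes too.

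Against WT cells, at 78.4 and 69.1 CPM, Chchd3 went opposite ways in the models without passing in any of them by edgeR. Its log2 fold change was 0.42 (95% interval −0.16 to 1.00, adjusted p = 0.33) in Cbfb::MYH11 tumors, where both libraries lay above WT, −0.96 (95% interval −1.48 to −0.44, adjusted p = 0.058) in MLL::AF9 tumors and −0.58 (95% interval −1.11 to −0.06, adjusted p = 0.19) in MLL::ENL tumors, where all libraries lay below. In MLL::AF9 it was called with a filter of 5 CPM in 2 libraries (adjusted p = 0.0459 from edgeR). Relative to the median of all genes on the log2(TPM + 1) scale, the differences were 0.64, −0.72 and −0.34.

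Between the MLL models none of the 8 members was called by edgeR (0 at an unadjusted p under 0.05, with no call by DESeq2 (0) or limma-voom (0)), where 0.0134% of all genes were. In 7 of 8 members the fitted value was lower in MLL::AF9, Chchd10 being the exception, with a median log2 fold change of −0.38 beside −0.01 over all genes. Chchd2, Chchd3 and Chchd7 lay below in every MLL::AF9 library, 3 of 8 members against 6.54% of all genes. Chchd7 had the widest gap, a log2 fold change of −0.81 (95% interval −1.68 to 0.06, adjusted p = 0.54 from edgeR).

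Genes of mitochondrial complexes and processes, and targets of the ATF4 stress response, were read from 4 lists. Of all genes tested, 27.35% for Cbfb::MYH11, 24.43% for MLL::AF9 and 22.02% for MLL::ENL had an unadjusted p under 0.05 from edgeR against WT. The list of MICOS and its outer membrane partner SAM gave 11 genes, among them Hspa9, a subunit of neither. None of the 11 was called against WT in any model by edgeR. At an unadjusted p under 0.05 there were 0 for Cbfb::MYH11, 4 for MLL::AF9 and 2 for MLL::ENL. DESeq2 called 0, 2 and 0, and limma-voom called 0 in each. In MLL tumors against Cbfb::MYH11 tumors 2 of 11 were called, both lower, where 12.4% of all genes were called lower and 25.6% in either direction. These were Samm50, the channel of SAM, at 129 against 289 CPM (log2 fold change −1.17, adjusted p = 0.0075 from edgeR), and Hspa9, the mitochondrial matrix chaperone, at 142 against 414 CPM (log2 fold change −1.55, adjusted p = 0.018 from edgeR). The median of the list was −0.62 there, beside 0.08 over all genes. The count was 4 without MLL::AF9 47. Neither call held without Cbfb::MYH11 27, where fewer genes were called over all genes too.

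The MIA40 relay and other proteins with paired cysteines gave 24 genes. Against WT 1 was called for Cbfb::MYH11 (10.5% of all genes), none by edgeR for MLL::AF9 (8 at an unadjusted p under 0.05, 3 by DESeq2, 0 by limma-voom, with 2.88% of all genes called by edgeR) and 1 for MLL::ENL (2.1% of all genes). Each of these calls was lower in the tumors. The MLL::ENL count was 0 when any library other than MLL::AF9 2 or MLL::AF9 47 was left out, and for Cbfb::MYH11 it was 2 when WT 2 or MLL::AF9 2 was left out. In MLL against Cbfb::MYH11 tumors 2 of 24 were higher, among them Coa4, a cytochrome c oxidase assembly factor, at 20.97 against 8.59 CPM (log2 fold change 1.25). Another 3 of 24 were lower there, among them the small import chaperones Timm10 (log2 fold change −1.24) and Timm8a1 (−1.05). With 25.6% of all genes called, the 5 of 24 were not above the background. The 5 calls became 3 without MLL::AF9 42, MLL::ENL NO or MLL::ENL RL, each left out alone. Fewer held without WT 1, WT 2 or Cbfb::MYH11 30 and none without Cbfb::MYH11 27, fits that leave 1 library in a group. Over all genes, too, fewer were called in each of these fits.

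Inner membrane dynamics and proteostasis gave 18 genes, of which none was called in Cbfb::MYH11 tumors by edgeR (1 at an unadjusted p under 0.05, with no call by DESeq2 (0) or limma-voom (0)) and none in MLL::ENL tumors (4 at an unadjusted p under 0.05, with 2 calls by DESeq2 and 0 by limma-voom). In MLL::AF9 tumors 1 of 18 was called, where 2.88% of all genes were. This was Phb2, a ring-forming scaffold of the inner membrane, at 146 against 380 CPM in WT cells (log2 fold change −1.37, adjusted p = 0.032 from edgeR). The count was 0 when any library other than MLL::ENL NO or MLL::ENL L was left out. In MLL against Cbfb::MYH11 tumors 8 of 18 were lower and none higher, where 12.4% of all genes were called lower and 13.2% higher, with a median of −0.77 beside 0.08 over all genes. C1qbp, a matrix protein, was at 88.5 against 232 CPM (log2 fold change −1.40, adjusted p = 0.043 from edgeR) and Afg3l2, a subunit of the m-AAA protease, at 47.1 against 111 CPM (log2 fold change −1.23, adjusted p = 0.0081 from edgeR). None was called without Cbfb::MYH11 27 and fewer were called without Cbfb::MYH11 30, fits that leave 1 library in that group. Over all genes, too, fewer were called in these fits.

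Targets of the ATF4 stress response gave 18 genes, which were listed because they rise in mouse tissues with mutant Chchd10. In Cbfb::MYH11 tumors 2 of 18 were called against WT cells, where 10.5% of all genes were. Ddit4, an inhibitor of growth signaling through mTOR, was higher, at 163 against 8.35 CPM (log2 fold change 4.29, adjusted p = 0.0075 from edgeR). Cebpb, a myeloid transcription factor, was lower, at 8.06 against 70.7 CPM (log2 fold change −3.13, adjusted p = 0.0039 from edgeR). The count of 2 became 1 without WT 1 or WT 2 and 4 without MLL::ENL NO. For MLL::AF9 none was called by edgeR (4 at an unadjusted p under 0.05, with 3 calls by DESeq2 and 0 by limma-voom), with 2 called without Cbfb::MYH11 30 and 1 without Cbfb::MYH11 27. In MLL::ENL tumors 1 of 18 was called, where 2.1% of all genes were. This was Phgdh, the first enzyme of serine synthesis, which was lower, at 11.9 against 203 CPM (log2 fold change −4.08, adjusted p = 0.041 from edgeR). The count there was 0 when any library outside MLL::AF9 was left out. Atf4 itself had log2 fold changes of 0.02, 0.21 and 0.30 in the 3 models, none of them called.

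In MLL against Cbfb::MYH11 tumors 10 of 18 stress targets were lower and 1 was higher, where 12.4% of all genes were called lower and 13.2% higher, with a median of −1.21 beside 0.08 over all genes. The lowest were Cth, an enzyme of cysteine synthesis, at 0.753 against 14.5 CPM (log2 fold change −4.23, adjusted p = 0.012 from edgeR) and Phgdh at 34.97 against 316 CPM (log2 fold change −3.58, adjusted p = 0.0032 from edgeR). Cebpb was higher, at 204 against 8.06 CPM (log2 fold change 4.66, adjusted p = 1.8e-04 from edgeR). Fewer than these 11 were called without Cbfb::MYH11 27, which leaves 1 library in that group, and fewer genes were then called over all genes too.

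**Figure D4:**
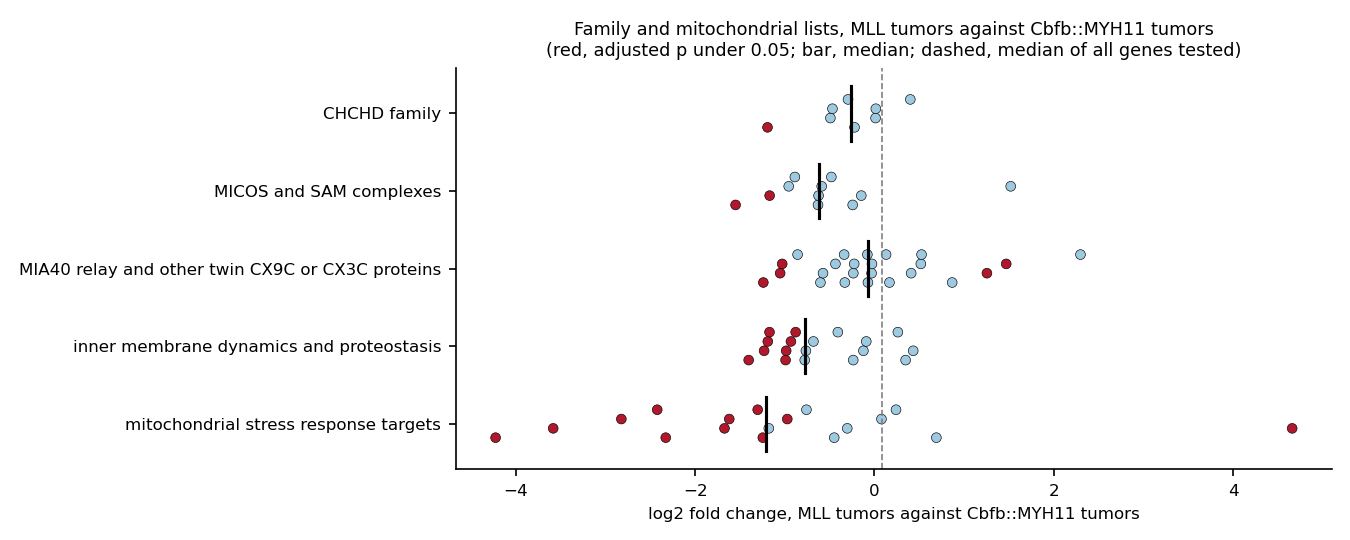
Each point is the log2 fold change of 1 gene (x axis) in MLL tumors against Cbfb::MYH11 tumors, in rows for the CHCHD family and the 4 lists, red where the adjusted p is under 0.05, with a bar at the median of the row and a dashed line at the median of all genes tested (0.08). The row medians are −0.26 for the family, −0.62, −0.08 and −0.77 for the next 3 lists and −1.21 for the stress targets.

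Between MLL::AF9 and MLL::ENL tumors no gene of the 4 lists was called by edgeR. At an unadjusted p under 0.05, which 10.18% of all genes passed, there were 1, 3, 0 and 3 genes of the MICOS, MIA40, inner membrane and stress lists. DESeq2 called 0, 0, 0 and 1, and limma-voom called none.

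Over the 10 libraries the genes whose log2 CPM followed Chchd10 most closely included transcripts of B cell precursors (Vpreb1, Vpreb2), red cells (Hbq1a) and eosinophils (Ear-ps9). This ranking runs over the gap between tumors and WT cells that chose Chchd10, so genes nearly absent from the tumors rank high in it. Over the 8 tumors alone r was 0.51 for Vpreb1, 0.44 for Hbq1a, 0.04 for Vpreb2 and 0.04 for Ear-ps9. The 10 with the highest Pearson r were Tmem132e (0.96), Vpreb1 (0.95), Dcaf12 (0.95), Gm10177 (0.94), Igkv1-110 (0.94), Hbq1a (0.93), Ear-ps9 (0.93), Vpreb2 (0.93), Ifi44l (0.93) and Igkv8-30 (0.93), of 14874 genes ranked. Vpreb1, a surrogate light chain of B cell precursors, was at 0.07 to 0.36 CPM in tumors, against 50.8 and 25.5 CPM in WT cells, and Ear-ps9, Vpreb2 and Ifi44l had no count in any tumor. Dcaf12 was at 62.3 to 146 CPM in tumors against 271 and 212 CPM in WT cells, with its highest tumor value, as for Chchd10, in MLL::AF9 42. Of the 10 none was among the 10 nearest by Spearman rho or over the 8 tumors alone. Within the family, r with Chchd10 was 0.75 for Chchd1, 0.62 for Chchd2, 0.61 for Chchd6, 0.37 for Chchd3, 0.32 for Chchd4, 0.30 for Chchd7 and −0.32 for Chchd5. Over the 8 tumors alone r was −0.20 for Chchd1, 0.12 for Chchd2, −0.02 for Chchd6, 0.09 for Chchd3, −0.16 for Chchd4, −0.49 for Chchd7 and 0.06 for Chchd5, so the values over 10 libraries rest on the gap between tumors and WT cells that chose Chchd10. The points share libraries and depth, and 2 of the 10 are the WT libraries.

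Transcripts of other cell types moved with Chchd10 between tumors and WT cells. The summed level of 11 erythroid markers was 94.2 to 11021 CPM in tumors, against 208811 and 43454 CPM in WT 1 and WT 2, that of 8 eosinophil markers 15.8 to 114 CPM in tumors, against 20553 and 8202 CPM, and that of 7 platelet and megakaryocyte markers 4.64 to 70.0 CPM in tumors, against 140 and 116 CPM. Ear1, a ribonuclease of eosinophils, was at 0 in all 8 tumors, and the platelet factor Pf4 was at 0 in MLL::AF9 47 and MLL::ENL NO. The part of these cells in the Chchd10 difference was not tested. Among the tumors, MLL::ENL NO had the highest erythroid sum (11021 CPM) and a Chchd10 level of 5.76 CPM, while MLL::AF9 42 had 6628 CPM of erythroid markers and 15.3 CPM of Chchd10, and MLL::AF9 47 had the lowest of both (94.2 CPM and 3.24 CPM). The summed levels of neutrophil, mast cell, B cell, T and NK cell and myeloid selection markers overlapped between tumors and WT cells, as did Kit, at 31.3 to 290 CPM in tumors against 65.6 and 88.6 CPM in WT cells. With hemoglobin, S100a8, S100a9 and mitochondrial genome transcripts removed before scaling, the log2 fold changes of Chchd10 were −3.27, −3.07 and −3.44. This removal can change the scaling only and leaves the Chchd10 reads of every cell type in place, so it does not test the part of these cells.

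**Figure D5:**
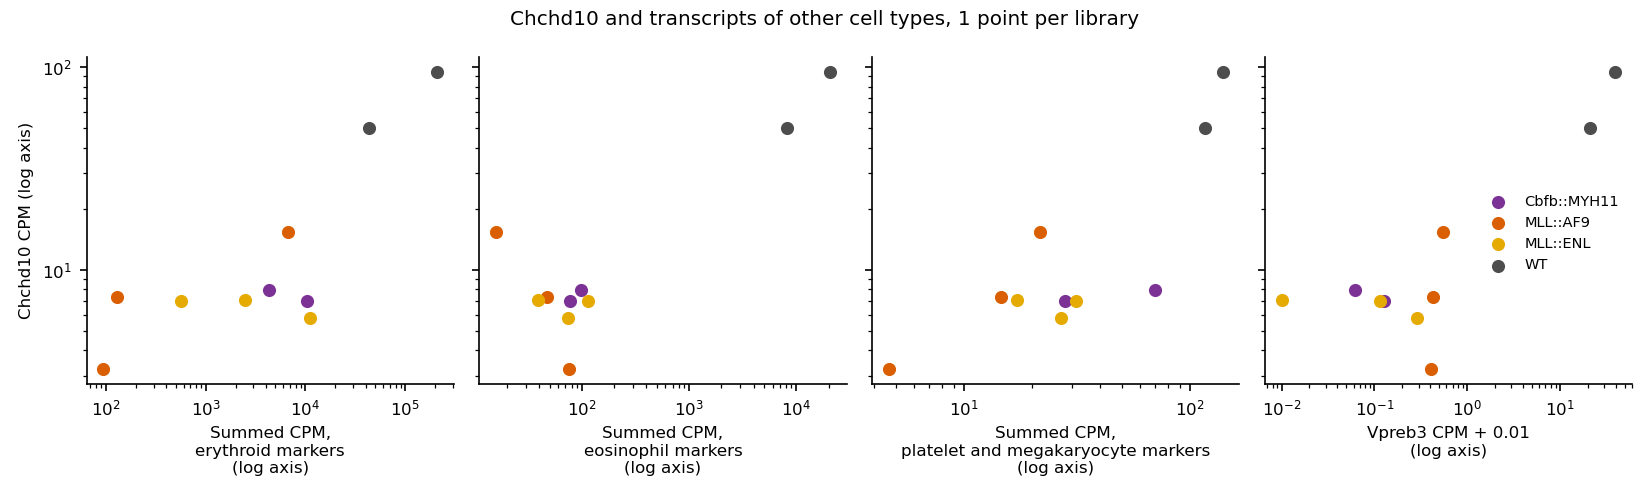
Each point is 1 library, with Chchd10 CPM on the y axis (log) and, on the x axes (log), the summed CPM of erythroid, eosinophil and platelet and megakaryocyte markers and the CPM of Vpreb3 with 0.01 added. The WT libraries stand at the upper right of all 4 panels, and the 8 tumors show a range of marker sums at Chchd10 levels of 3.24 to 15.3 CPM.

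The genes beside Chchd10 were checked, because reads at its ends could belong to them and counting by strand is not given in the sources used here. Mmp11 and Gm867 lie on the opposite strand and overlap the annotated Chchd10 locus by 3367 and 25 bases. Mmp11 was at 0.99 CPM or less in every tumor, against 1.66 and 0.65 CPM in WT cells, and Gm867 at 0.65 CPM or less in every tumor, against 2.29 and 2.77 CPM in WT cells. The annotation starts Chchd10 2443 bases before the start in the deposited tables. The nearest gene wholly before it, Smarcb1, a subunit of the SWI/SNF chromatin remodelling complex, was at 53.7 to 81.1 CPM in tumors, against 77.1 and 63.6 CPM in WT cells, and was not called in any comparison with WT (adjusted p = 0.80 for Cbfb::MYH11, 0.57 for MLL::AF9 and 0.99 for MLL::ENL from edgeR). The nearest gene wholly after it, Vpreb3, lies 5310 bases away on the same strand and belongs to B cell precursors. Vpreb3 was at 0.54 CPM or less in every tumor, against 39.7 and 21.02 CPM in WT cells, and was called lower in all 3 models (log2 fold changes −8.40, −6.03 and −8.05, adjusted p = 0.0023, 0.0092 and 0.0057 from edgeR). Phkg1, which overlaps Chchd2 on the same strand, was at 4.56 CPM or less in every tumor and at 0 in both WT libraries.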

How the data were processed

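RNA-seq libraries of 8 spleen tumors and 2 WT marrow samples were analysed. The submitters' processing notes name FastQC, STAR, RSEM and the build mm10. Versions, strand setting and a test for RNA-seq are not given in the sources used here. The deposited tables hold expected counts, TPM and FPKM, as the authors made them per library. Expected counts were rounded, filtered by filterByExpr, scaled by TMM and fitted by condition with edgeR 4.0.16 (R 4.3.3) in 1 model of 10 libraries with 6 residual degrees of freedom, with Benjamini-Hochberg adjustment over 14875 genes. The fit was tested on simulated data. For MLL against Cbfb::MYH11 tumors it called 1 of 80 genes changed 2-fold, 29 of 57 changed 4-fold and 57 of 63 changed 8-fold. In that simulation 200 genes were changed and the others had the same mean in all conditions, while in the data 25.6% were called. These shares therefore do not give the recovery in the real comparison. Alternatives were RLE and upper-quartile scaling, DESeq2 1.42.0, limma-voom 3.58.1, other filters, removal of abundant transcripts, separate fits, TPM or FPKM with a pseudocount of 1, and leaving out each library. Likeness used log2 CPM with a prior count of 0.5. The members and lists were chosen with earlier results of these data known. Named genes were all members, up to 2 called genes a direction from each list and comparison, the 10 nearest to Chchd10 and its neighbours, except that some genes are not reported here. Of the listed symbols, 3 were not matched. No 2 libraries had identical counts. Nothing says that libraries of a condition came from separate litters or days, so p-values measure the spread between these samples.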

Additional observations from a re-analysis of the deposited data

Results flagged for a closer look

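Chchd10 in MLL::AF9 42 stood apart from the other MLL tumors, at 15.3 CPM with the next highest of the 6 at 7.29 CPM, a gap that took 0.665 of the whole range, past Dixon's 95% limit for 6 samples. The highest and the lowest MLL tumor of each of the 8 members were tested in this way in CPM, and this was the only value past the limit. Chance alone gives about 1 in 20 for a single member, so a flag somewhere among the 8 is less rare than that. The tumor levels of Chchd10 are also among the values by which it was chosen, so its flag is a description. In TPM, MLL::AF9 42 had 26.8, with 14.3 as the next highest of the MLL tumors and 6.67 as the lowest. The limit was not applied in TPM.

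Several effects differed between tumor models by the test of MLL tumors against Cbfb::MYH11 tumors. In this comparison edgeR called 25.6% of all genes in either direction, so a call was common. The calls of Chchd3, Samm50, Hspa9, Timm8a1, Timm10, Coa4, C1qbp and Afg3l2 did not hold without the Cbfb::MYH11 library with the higher Chchd3 level. That fit leaves a single library in the group, and fewer genes were then called over all genes too. Chchd3 differed by a log2 fold change of −1.19. Among the listed mitochondrial genes, lower values in MLL tumors were found for Samm50 (−1.17), Hspa9 (−1.55), Timm8a1 (−1.05), Timm10 (−1.24), C1qbp (−1.40) and Afg3l2 (−1.23). Coa4 (1.25) was higher. Among the listed stress targets, Phgdh (−3.58) and Cth (−4.23) were lower and Cebpb (4.66) was higher. All these values are on the log2 scale.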

How the results depend on the processing

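Chchd10 stayed lower than in WT cells in all 3 models under every alternative. On the log2(TPM + 1) scale, where all genes shift, its differences were −2.46 for Cbfb::MYH11 and −2.61 for MLL::ENL. Leaving out each library gave −3.78 to −2.55 for MLL::AF9 against WT. The Chchd3 difference between MLL and Cbfb::MYH11 tumors kept its call under every other scaling, tool and filter and in a separate fit, but not without Cbfb::MYH11 27, which made the count of members called lower 0 to 1 over the libraries left out. Members called lower in MLL::AF9 against WT numbered 3 with DESeq2 and 1 with the filter of 5 CPM in 2 libraries. Of the 10 genes nearest to Chchd10, 0 stayed among the 10 nearest by Spearman rho and 0 over the tumors alone.

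The other changes of sign were in differences that edgeR had not called, and none was called where the alternative gave a test. Chchd10 in MLL against Cbfb::MYH11 tumors was −0.11 with limma-voom, −0.0087 in the separate fit, −0.064 in TPM and −0.067 in FPKM, and −0.34 to 0.21 over the libraries left out, with −0.34 to 0.77 for MLL::AF9 against MLL::ENL. Against WT in TPM, Chchd2 was 0.48 in Cbfb::MYH11 and 0.17 in MLL::ENL, Chchd1 0.011 in Cbfb::MYH11, Chchd3 0.090 in MLL::ENL, Chchd4 0.54 in Cbfb::MYH11 and 0.18 in MLL::ENL, and Chchd7 0.60 in MLL::ENL. In FPKM, Chchd2 was 0.13 and Chchd4 0.23 in Cbfb::MYH11, and Chchd7 was 0.28 in MLL::ENL, where limma-voom gave 0.082. In MLL against Cbfb::MYH11 tumors Chchd5 was −0.0041 with RLE, −0.0026 with DESeq2, −0.017 in the separate fit, −0.041 in TPM and −0.046 in FPKM, and Chchd6 was 0.090 with limma-voom, 0.23 in TPM and 0.22 in FPKM. Over the libraries left out, Chchd2 ran between −0.61 and 0.22, Chchd4 between −0.27 and 0.077 and Chchd7 between −1.57 and 0.021 in Cbfb::MYH11 against WT, Chchd5 between −0.15 and 0.44 in MLL::AF9 against WT, Chchd7 between −0.80 and 0.78 in MLL::ENL against WT, and Chchd4 between −0.70 and 0.085 in MLL::AF9 against MLL::ENL. In MLL against Cbfb::MYH11 tumors Chchd1 ran between −0.43 and 0.0084, Chchd5 between −0.11 and 0.090 and Chchd6 between −1.04 and 1.34. The cause was not tested.

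Counts of called list genes moved more. For Cbfb::MYH11 against WT the MIA40 list gave 2 with DESeq2, without a filter and in the separate fit, and 1 to 2 over the libraries left out, and the stress list gave 5 with DESeq2, 4 without a filter, 5 in the separate fit, and 1 to 4 over the libraries left out. For MLL::AF9 against WT, DESeq2 called 2 genes of the MICOS list and 3 each of the other lists. Without a filter the MIA40 list gave 1 and the stress list 3, and the separate fit gave 0 for the inner membrane list and 1 for the stress list, with 0 to 1 and 0 to 2 for these lists over the libraries left out. For MLL::ENL against WT the inner membrane list gave 2 with DESeq2 and 1 in the separate fit, the stress list 2 with DESeq2, limma-voom and no filter, and both the MIA40 and the stress list 0 to 1 over the libraries left out. For MLL against Cbfb::MYH11 tumors the MICOS list gave 4 with DESeq2, and over the libraries left out the MICOS list gave 0 to 4, the MIA40 list 0 to 6, the inner membrane list 0 to 8 and the stress list 3 to 10. For MLL::AF9 against MLL::ENL the stress list gave 1 with DESeq2 and without a filter.

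Over all genes, DESeq2 called 2888 for Cbfb::MYH11, 2124 for MLL::AF9 and 1815 for MLL::ENL against WT, where edgeR called 1556, 429 and 313. In each comparison that uses WT or Cbfb::MYH11, edgeR called fewer genes when either library of that condition was left out. Lost calls of members or lists are to be read beside this. The 2 or 3 libraries a condition, and 62 to 310 Chchd10 counts in a tumor, limit the precision, and an uncalled gene is not shown to be alike. No paired analysis was made, because the labels give no pairing of mice between conditions.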
